A study of Rattus norvegicus with 8 samples.

Results

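Claudins and the proteins that join them at the tight junction were compared between secretory-stage and maturation-stage enamel organs of the rat incisor. The set held 9 genes, Cldn1, Cldn3, Cldn4, Cldn5, Cldn7, Cldn10, Cldn11, Ocln and Tjp1. Members were found by the gene symbol that the array file gives each probe, and 8 of the 9 had a probe among the 22523 probes of the array, which carry 21557 gene symbols, with 1 probe each. No probe for Cldn7 was found by symbol or by gene ID, so Cldn7 was not analysed here. Total RNA came from the enamel organs of 4 Wistar rats, Wistar Hannover in the study's methods, male and 4 weeks old, with no genetic change or treatment. Each rat gave 1 secretory-stage sample and 1 maturation-stage sample, so that the comparison held 4 arrays of each stage. The enamel organ was dissected along the incisor surface as whole tissue. Its RNA pools ameloblasts, the epithelial cells that make enamel, with other cells, such as those of the papillary layer, vessels and blood. Markers of fibroblasts, odontoblasts and osteoblasts also gave signal, as described below. In such bulk samples fewer cells of a type and less RNA per cell cannot be told apart.

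Tight junctions seal the space between neighbouring epithelial cells near the apical surface. Claudins span the membrane and meet claudins of the adjacent cell, and their composition sets how readily water and ions pass between cells. Some claudins tighten the junction, whereas others form paracellular pores selective for cations or anions. Occludin is a further membrane protein of the junction, and the zonula occludens proteins tie these strands to the actin cytoskeleton. In the enamel organ, secretory ameloblasts lay down the enamel matrix. Maturation-stage ameloblasts then cycle between ruffle-ended and smooth-ended forms whose junctions lie at opposite ends of the cell, while matrix is removed and mineral is added.

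The array annotation placed Cldn1 and Cldn5 on chromosome 11, Cldn3 and Cldn4 on chromosome 12, Cldn10 on chromosome 15, Cldn11 and Ocln on chromosome 2 and Tjp1 on chromosome 1. In the RefSeq annotation of assembly GRCr8, no protein-coding gene lay between Cldn3 and Cldn4, and none lay between Cldn1 and Cldn16. The 250 bases before the annotated start of Cldn1, Cldn5 and Cldn10 are shown because these genes passed the stage test below. RefSeq, build GRCr8, gives them as chr11:87926126-87926375 on the plus strand, chr11:95718599-95718848 on the minus strand and chr15:102269608-102269857 on the plus strand. Each is written 5′ to 3′ on the strand of the gene. Capitals mark 4 motifs, read on either strand. The letters searched were GGGCGG for the GC box, CCAAT for the box of that name, TATAAA for the TATA box and CAGGTG for the E-box bound by Snail-family repressors.
Cldn1: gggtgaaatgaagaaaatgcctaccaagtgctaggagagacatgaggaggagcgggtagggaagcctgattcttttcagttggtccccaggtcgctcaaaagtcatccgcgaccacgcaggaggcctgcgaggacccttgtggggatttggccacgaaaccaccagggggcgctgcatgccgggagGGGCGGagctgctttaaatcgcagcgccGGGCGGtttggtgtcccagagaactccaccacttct
Cldn5: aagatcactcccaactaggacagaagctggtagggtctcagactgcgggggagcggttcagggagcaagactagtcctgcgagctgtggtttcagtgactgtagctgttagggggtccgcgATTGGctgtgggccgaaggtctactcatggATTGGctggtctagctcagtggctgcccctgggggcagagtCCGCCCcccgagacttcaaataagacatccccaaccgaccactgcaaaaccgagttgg
Cldn10: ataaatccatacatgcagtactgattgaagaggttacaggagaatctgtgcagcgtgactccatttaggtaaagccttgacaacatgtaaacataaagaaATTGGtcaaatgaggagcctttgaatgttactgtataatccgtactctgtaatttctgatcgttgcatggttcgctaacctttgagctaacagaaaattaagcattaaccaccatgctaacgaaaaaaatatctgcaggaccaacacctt

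The Cldn1 window held 2 GC boxes, which began 64 and 36 bases before the start. The Cldn5 window held 1 GC box, 58 bases before the start, and 2 CCAAT boxes, 129 and 99 bases before it. Both windows were rich in G and C, at 59.2% for Cldn1 and 58.4% for Cldn5, against a median of 51.2% over 33469 RefSeq windows of the same length. The Cldn10 window was poor in G and C at 38.0%, and its sole match was 1 CCAAT box, 150 bases before the start. The array probe could not be placed on an isoform of Cldn10, so this window may not be that of the transcript measured. A GC box was present in 30.5% of the 33469 windows, a CCAAT box in 34.0%, a TATA box in 12.9% and the E-box in 15.9%. These matches describe the letters of the windows and were not tested against the arrays. The table used here holds no window for Cldn4.

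Signals were background-corrected, quantile-normalized and placed on a log2 scale, and a difference is given as maturation minus secretory. A probe was called where its adjusted p in limma was below 0.05 and its fold change was at least 1.8. A probe counted as detected on an array where its detection p against the negative-control beads was below 0.05. Summed raw signal ran from 11881700 to 12046800 on the secretory arrays and from 13355100 to 16122700 on the maturation arrays. Between 10667 and 10941 probes were detected per secretory array and between 11164 and 11450 per maturation array. For maturation replicates 2, 3 and 4 the source field reads secretory, in conflict with the title, description and tissue given for the same samples. Over the probes detected on at least 4 arrays, 8 of 8 arrays were closer to the stage of their title. Enam, which encodes the matrix protein enamelin of secretory ameloblasts, had a log2 signal of 11.94 to 12.03 on the secretory arrays. Its signal on maturation replicates 1 to 4 was 9.08, 5.17, 5.53 and 8.22, so that replicates 1 and 4 stood apart from the other maturation arrays. The members and the other called tight junction genes were therefore also compared with these 2 arrays left out.

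A group of 4 claudins carried the stage difference, and each was higher at the maturation stage. Cldn4, Cldn10, Cldn1 and Cldn5 were called higher, that is 4 of the 8 members on the array, where 4.60% of all probes were called higher. No member was called lower, against 3.15% of all probes. With the adjusted p alone, 5 members were higher and 1 was lower, where 26.9% of all probes passed in either direction. The 2 stages did not overlap for 5 of the 8 members, against 27.7% of all probes. The median log2 difference of the 8 members was 0.66, beside -0.01 over all probes and -0.05 over the 11233 probes detected on at least 4 arrays. Of the 8 members, 6 were detected on at least 4 arrays, and Cldn3 was detected on none. The shares over all probes include many that were never detected. Among the 11233 probes detected on at least 4 arrays, 9.19% were called higher, 6.27% were called lower and 49.5% did not overlap between the stages. Of the 6 members in that class, 4 were called higher and 5 did not overlap.

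**Figure D1:**
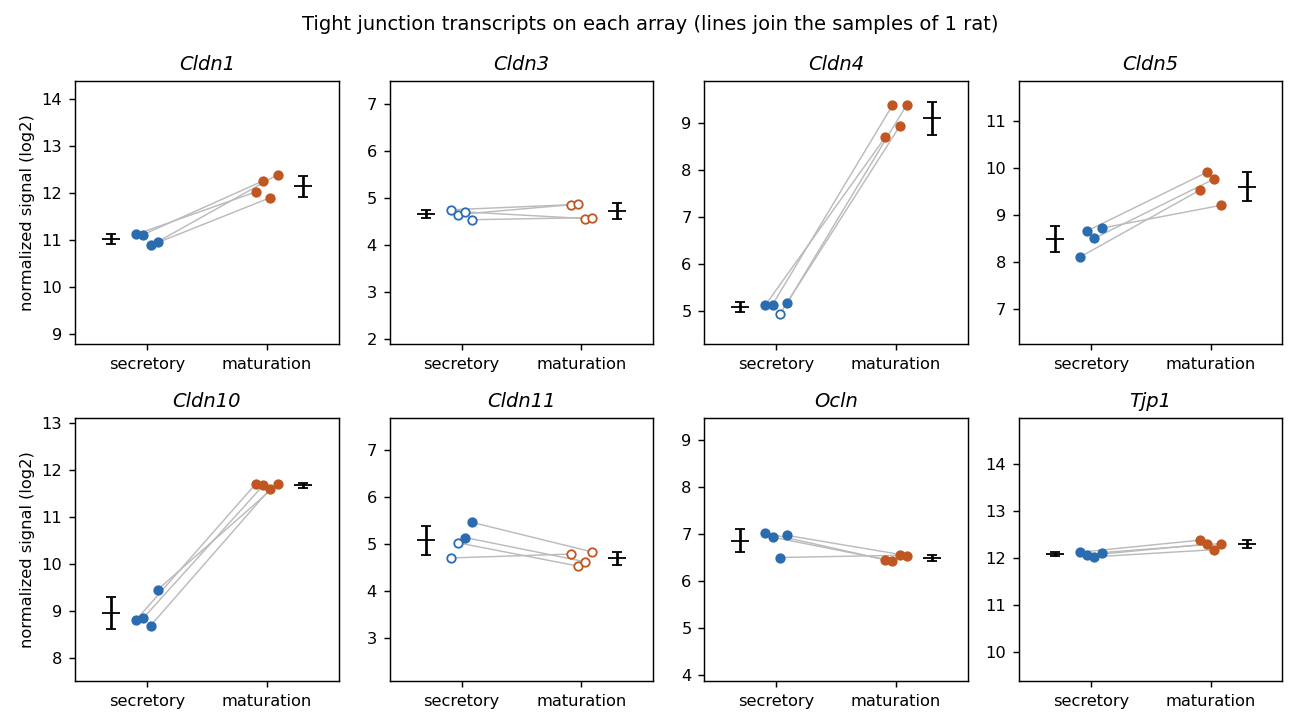
Normalized log2 signal of each of the 8 members on every array, by stage, with a line joining the 2 samples of 1 rat; filled points were detected, open points were not, and the black bars give the mean ± SD of 4 arrays. Every panel spans the same number of log2 units, and Cldn4 and Cldn10 show the steepest lines, whereas Cldn3 has open points on all 8 arrays.

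Cldn4, a claudin that tightens epithelial junctions, gave the widest difference of the members after background correction. Its log2 signal on maturation replicates 1 to 4 was 8.70, 9.37, 8.93 and 9.39, and on secretory replicates 1 to 4 it was 5.13, 5.14, 4.93 and 5.17. The secretory values lay at the edge of detection, with 3 of 4 arrays passing, whereas all 4 maturation arrays were well separated from them. Means were 9.10 ± 0.343 at maturation and 5.09 ± 0.108 at the secretory stage (SD, n = 4 each). The log2 difference was 4.01 with a standard error of 0.152, or 16.1-fold, and the limma adjusted p was 1.39e-07. The 95% interval of the log2 difference was 3.66 to 4.35. Cldn4 was higher at maturation in 4 of 4 rats, with log2 differences of 3.57, 4.24, 4.00 and 4.22 within rats 1 to 4. Because the secretory signal was close to background, the size depended on the background step. Without background correction the log2 difference of Cldn4 was 2.34, below the 2.52 of Cldn10, at raw signals of Cldn4 of 115 to 120 on the secretory arrays and 600 to 902 on the maturation arrays.

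Cldn10, whose isoforms form paracellular channels for cations or for anions, had the next largest rise, and the largest where the background was not corrected. On maturation replicates 1 to 4 its log2 signal was 11.71, 11.67, 11.60 and 11.70, and on secretory replicates 1 to 4 it was 8.81, 8.85, 8.68 and 9.45. The maturation arrays were nearly level with each other, and the highest secretory array, replicate 4, was still far below them. Means were 11.67 ± 0.0483 and 8.95 ± 0.343 (SD, n = 4 each). The log2 difference was 2.72 with a standard error of 0.147, or 6.59-fold, with a 95% interval of 2.39 to 3.05 and a limma adjusted p of 1.01e-06. Within rats 1 to 4 the log2 difference was 2.90, 2.82, 2.92 and 2.25. The probe could not be assigned to an isoform of Cldn10, so the value does not tell the cation-selective from the anion-selective form.

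Cldn1, which is required for the barrier of the epidermis, was well above background at both stages. Its log2 signal was 12.03, 12.27, 11.91 and 12.39 on maturation replicates 1 to 4 and 11.13, 11.12, 10.89 and 10.97 on secretory replicates 1 to 4. The lowest maturation array was above the highest secretory array. Means were 12.15 ± 0.221 and 11.03 ± 0.117 (SD, n = 4 each), a log2 difference of 1.12 with a standard error of 0.111, or 2.18-fold, with a limma adjusted p of 5.01e-05. The 95% interval was 0.87 to 1.37, and the difference within rats 1 to 4 was 0.91, 1.14, 1.02 and 1.43. Cldn16, the nearest protein-coding neighbour of Cldn1 on one side and a claudin of renal magnesium and calcium reabsorption, was not detected on any of the 8 arrays.

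Cldn5 is the main claudin of endothelial cells and a defining seal of the blood-brain barrier. Its log2 signal was 9.53, 9.92, 9.77 and 9.21 on maturation replicates 1 to 4 and 8.11, 8.67, 8.51 and 8.73 on secretory replicates 1 to 4. The stages did not overlap, although rat 4 had both the lowest maturation value and the highest secretory value. Means were 9.61 ± 0.307 and 8.50 ± 0.277 (SD, n = 4 each), and the log2 difference was 1.11 with a standard error of 0.173, or 2.15-fold, with a limma adjusted p of 9.50e-04. The 95% interval was 0.71 to 1.50. The log2 difference was 1.42, 1.25 and 1.26 within rats 1 to 3 and 0.49 within rat 4.

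Endothelial markers were read beside Cldn5. Of 14 listed markers 11 were on the array and 9 were detected, while Cdh5 and Robo4 were detected on no array. Vwf, which encodes von Willebrand factor, was called higher with a log2 difference of 0.88 and was the sole marker called in either direction. Sox17, Sox18 and Egfl7 were higher by log2 differences of 0.76, 0.68 and 0.48 and passed the adjusted p. Tie1 had 2 probes, 1 higher by 0.42 that did not pass and 1 higher by 0.35 that did. Emcn had a difference of -0.00, Plvap one of -0.28, Tek one of 0.08 and Flt1 one of -0.13, and none of these passed. The median over all 11 markers, with the undetected Cdh5 and Robo4 among them, was 0.08. Of the 9 detected markers, 4 passed the adjusted p with a higher value at maturation and 0 with a lower value. Their summed normalized level, on the linear scale, ran from 7776 to 9671 on the secretory arrays and from 8742 to 10928 on the maturation arrays. The part of endothelial content in the Cldn5 difference was not tested.

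**Figure D2:**
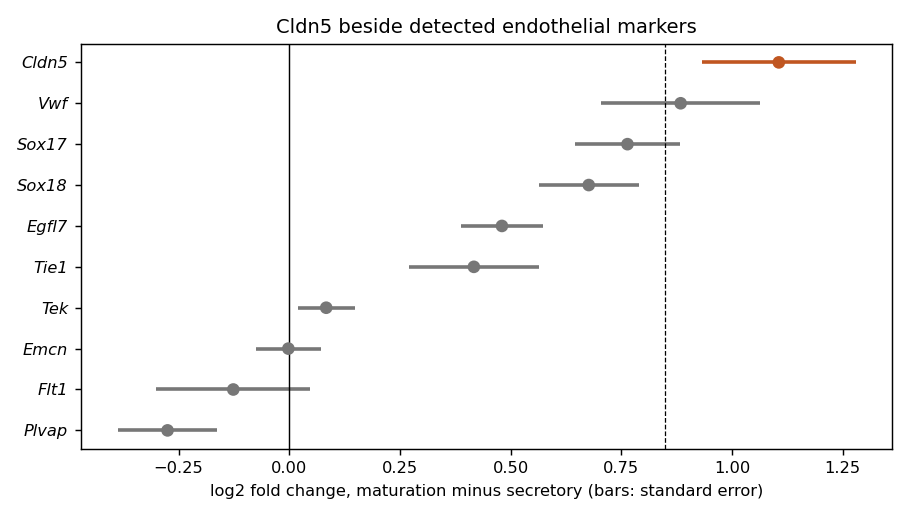
Log2 difference between maturation and secretory arrays (points) with its standard error (bars) for Cldn5, in orange, and for the 9 endothelial markers detected on at least 1 array, in grey. The dashed line marks a 1.8-fold rise; Cldn5 at 1.11 and Vwf at 0.88 lie beyond it, and the markers spread from -0.28 upward.

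The other 2 claudins of the set with a probe were at or near background. Cldn3, a sealing claudin of gut and other epithelia, had log2 signals of 4.86, 4.87, 4.56 and 4.59 on maturation replicates 1 to 4 and 4.75, 4.65, 4.71 and 4.54 on secretory replicates 1 to 4. None of these 8 values was detected, and no fold change is given. Its neighbour Cldn4, with no protein-coding gene between them, was thus detected on all 4 maturation arrays on which Cldn3 was not. Cldn11, a claudin of myelin and of the Sertoli cell barrier in testis, had log2 signals of 4.78, 4.53, 4.62 and 4.83 on maturation replicates 1 to 4, none of them detected. On secretory replicates 1 to 4 its signals were 4.70, 5.02, 5.13 and 5.46, and replicates 3 and 4 were detected. The bound, the secretory mean against the detection floor of the maturation arrays, was 1.09-fold. That mean includes 2 undetected arrays and the stages overlapped, so the bound does not establish a decrease. Within rats 1 to 4 the log2 difference was 0.08, -0.49, -0.51 and -0.63. The limma adjusted p was 0.0842 at a measured log2 difference of -0.39 with a standard error of 0.146. Leaving out secretory replicate 1 gave a limma adjusted p of 0.0126, and leaving out maturation replicates 1 and 4 gave 0.109.

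Occludin did not follow the claudins. Ocln encodes a tetraspan MARVEL protein that accompanies claudin strands and regulates the passage of larger solutes. Its log2 signal was 6.45, 6.42, 6.55 and 6.54 on maturation replicates 1 to 4 and 7.02, 6.93, 6.50 and 6.97 on secretory replicates 1 to 4. The maturation arrays were close together and 3 of the 4 secretory arrays were above them, but secretory replicate 3 fell within their range, so the stages overlapped. Means were 6.49 ± 0.0618 and 6.86 ± 0.240 (SD, n = 4 each). The log2 difference was -0.36 with a standard error of 0.111 and a 95% interval of -0.61 to -0.12, a 1.29-fold difference that passed the adjusted p in limma at 0.0354 but not the fold threshold. With the rat as a block the limma adjusted p was 0.0524. Raw signal ran the other way, at 166 to 191 on the secretory arrays and 188 to 210 on the maturation arrays, so the sign differed between raw and normalized values. With arrays scaled to a common median the log2 difference was -0.07 at a limma adjusted p of 0.577. Without secretory replicate 3 it was -0.49, at a limma adjusted p of 6.63e-04. With maturation replicates 1 and 4 both left out it was -0.36, at a limma adjusted p of 0.145.

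Tjp1, which encodes the scaffold ZO-1 that binds claudins and occludin to actin, was close to level between the stages. Its log2 signal was 12.38, 12.30, 12.18 and 12.31 on maturation replicates 1 to 4 and 12.12, 12.05, 12.03 and 12.11 on secretory replicates 1 to 4. Every maturation array lay above every secretory array, by a narrow margin. Means were 12.29 ± 0.0840 and 12.08 ± 0.0469 (SD, n = 4 each), and the log2 difference was 0.21 with a standard error of 0.0610 and a 95% interval of 0.07 to 0.35. The limma adjusted p was 0.0286, so that Tjp1 passed the adjusted p but, at 1.16-fold, not the fold threshold. The difference within rats 1 to 4 was 0.26, 0.24, 0.15 and 0.19. The adjusted p was below 0.05 in 10 of 17 alternative settings and 0.205 with maturation replicates 1 and 4 both left out.

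**Figure D3:**
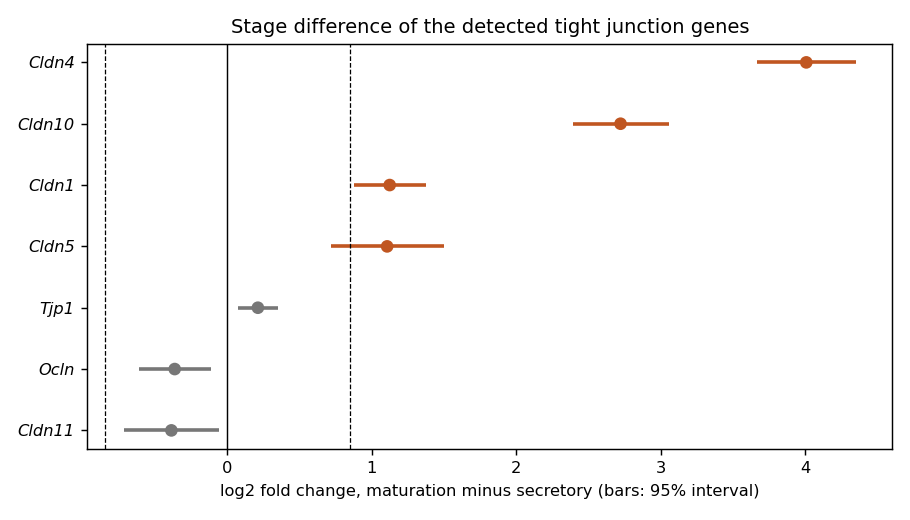
Log2 difference between maturation and secretory arrays (points) with its unadjusted 95% interval (bars) for the 7 members detected on at least 1 array; dashed lines mark a 1.8-fold change and orange marks called genes. Cldn4 at 4.01 and Cldn10 at 2.72 stand clear of Cldn1 at 1.12 and Cldn5 at 1.11, and Tjp1, Ocln and Cldn11 lie between the dashed lines.

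Exact two-sided permutation tests on the difference of means gave p = 0.0286 for Cldn1, Cldn4, Cldn5, Cldn10 and Tjp1, the smallest value that 4 against 4 arrays allow. These tests did not use the pairing by rat. An exact permutation within the 4 rats gave p = 0.125 for the same 5 genes, the smallest value it allows, and so cannot reach 0.05. The exact permutation p was 0.0857 for Ocln and for Cldn11 and 0.514 for Cldn3. Each member was measured by 29 to 61 beads per array, with a bead standard error of 2.12% to 4.88% of its signal.

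The 4 calls held in all 20 alternative settings, which covered the background correction, scaling, filter, test, thresholds, rat block and left-out arrays. Leaving out 1 array at a time gave log2 differences of 3.88 to 4.11 for Cldn4, 2.63 to 2.88 for Cldn10, 1.04 to 1.21 for Cldn1 and 0.97 to 1.24 for Cldn5. With maturation replicates 1 and 4 both left out, the log2 differences were 3.99, 2.71, 1.08 and 1.34 in the same order.

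**Figure D4:**
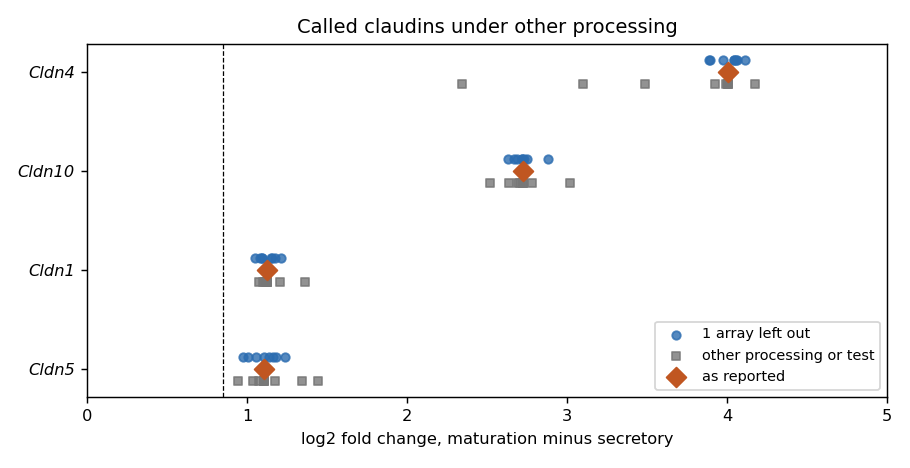
Log2 difference between maturation and secretory arrays for the 4 called claudins as reported (diamonds), with 1 array left out (circles) and under other processing or tests (squares). The dashed line marks a 1.8-fold rise, which every point passes; Cldn4 spreads most, down to 2.34 without background correction.

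Genes with the same pattern as Cldn4 over the 8 arrays were sought among 11227 probes of other genes detected on at least 4 arrays. The 3 with the highest Pearson r were Slc6a14, an amino acid transporter, at 0.999, Nrip3 at 0.999 and Fos, an immediate-early transcription factor, at 0.998. Their log2 differences were 5.32, 4.03 and 2.48. The 8 points share 2 stages, so r here mostly describes the step between them.

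The tight junction holds many further proteins, and 54 of their genes were listed, of which 44 had a probe. Among these 44, 5 were called higher and 2 lower, beside 4.60% and 3.15% of all probes. All of these called genes were among the 27 detected on at least 4 arrays, beside 9.19% called higher and 6.27% called lower of such probes. The median log2 difference was 0.03, with a range from -1.44 to 1.50, and 15 of the 44 were detected on no array. Of the 29 detected on at least 1 array, 14 passed the adjusted p with a higher value at maturation and 5 with a lower value, where 44.0% of all 13512 probes detected on at least 1 array passed in either direction. The 2 stages did not overlap for 22 of the 44, beside 27.7% of all probes, and for 18 of the 27 detected on at least 4 arrays, beside 49.5% of such probes.

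None of the other claudins was called. Of 14 listed, 10 had a probe and 7 were detected on no array, among them Cldn2, a cation pore of leaky epithelia, and Cldn8, Cldn15 and Cldn16. Cldn12, Cldn19 and Cldn22 were detected. Cldn12 was higher at maturation by a log2 difference of 0.50 with a standard error of 0.108 and a limma adjusted p of 0.00649, below the fold threshold. Its probe was found by gene ID under an older name, and the probe that the file calls Cldn12_predicted carries a gene ID now assigned to Gtpbp10 and was not used. Cldn19 and Cldn22 had log2 differences of 0.11 and 0.09, and neither passed the adjusted p.

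At tricellular contacts, Lsr, the angulin that recruits tricellulin, was higher by a log2 difference of 0.44 with a limma adjusted p of 4.52e-04, below the fold threshold. Marveld2, the gene of tricellulin, was not detected on any array. Marveld3, another MARVEL protein, was detected on 6 arrays with a difference of 0.10 that did not pass.

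Junctional adhesion molecules are immunoglobulin-like membrane proteins of the junction, and 2 of the 6 on the array were called higher. F11r, the gene of JAM-A, had means of 12.72 ± 0.227 at maturation and 11.22 ± 0.0996 at the secretory stage (SD, n = 4 each), a log2 difference of 1.50 with a standard error of 0.111 and a limma adjusted p of 7.32e-06. Cxadr, the coxsackievirus and adenovirus receptor, had means of 9.66 ± 0.0888 and 8.63 ± 0.105 (SD, n = 4 each), a log2 difference of 1.03 with a standard error of 0.0728 and a limma adjusted p of 5.81e-06. Esam and Clmp were higher by 0.69 and 0.64 and passed the adjusted p alone. Jam3 was lower by a log2 difference of -0.48 and also passed the adjusted p alone. Thus the group held members on both sides.

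None of the 10 other scaffold genes on the array was called. Mpdz, the gene of a multi-PDZ scaffold, was lower by a log2 difference of -0.49 and passed the adjusted p alone. Magi3 had a difference of 0.01. Tjp3 and Cgn, the genes of ZO-3 and cingulin, were detected on no array.

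Polarity complexes position the junction along the cell, and 2 of their 10 genes on the array were called higher and 1 lower. Pard6g, a PAR6 adaptor, had means of 7.58 ± 0.139 and 6.38 ± 0.319 at maturation and secretory stage (SD, n = 4 each), a log2 difference of 1.21 with a limma adjusted p of 1.99e-04. Crb3, the apical Crumbs protein, had a log2 difference of 1.01 with a standard error of 0.0925. Prkcz, which encodes atypical protein kinase C zeta of the same PAR complex, was lower, with means of 8.53 ± 0.0925 and 9.97 ± 0.0504 (SD, n = 4 each), a log2 difference of -1.44 and a limma adjusted p of 3.04e-07. Prkci, the gene of the other atypical kinase, was higher by 0.47 and passed the adjusted p alone, as did Pard3 at 0.63 and Pals1 at 0.75. The kinase genes of this complex therefore had opposite signs, in 4 of 4 rats for Prkcz and in 3 of 4 for Prkci.

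Among regulators, Wnk4, a kinase that phosphorylates claudins and controls paracellular chloride passage, was called higher with a log2 difference of 0.91 and a standard error of 0.135. It lay near the fold threshold and fell below it at 0.84 without background correction, at 0.80 without maturation replicate 2 and at 0.82 without secretory replicate 4. Arhgef2, the gene of GEF-H1, a guanine nucleotide exchange factor held at tight junctions, was called lower with a log2 difference of -1.16 and a standard error of 0.0980. Rab13, a small GTPase of junction assembly, was higher by 0.55 and passed the adjusted p alone. Sympk, the gene of symplekin, was lower by a log2 difference of -0.36 with a limma adjusted p of 0.0340, also below the fold threshold. Pard6g also fell below the fold threshold without background correction, at 0.69. With maturation replicates 1 and 4 both left out, the 5 genes called higher and the 2 called lower were still called, with log2 differences from -1.53 for Prkcz to 1.52 for F11r.

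**Figure D5:**
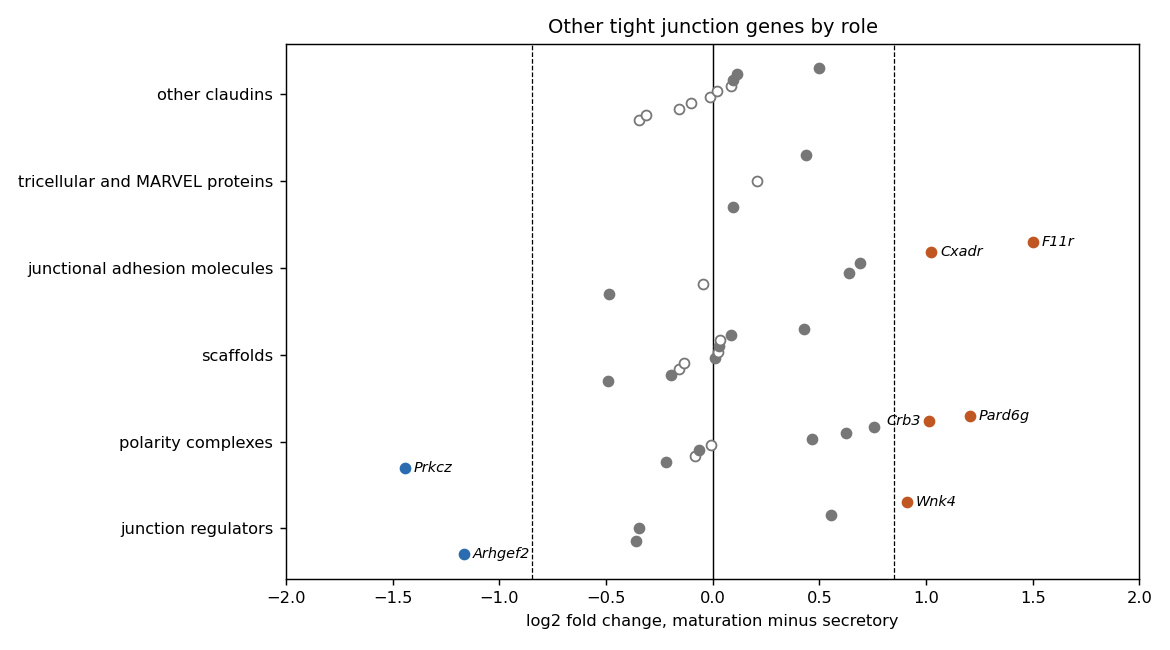
Log2 difference between maturation and secretory arrays for the 44 other tight junction genes with a probe, grouped by role; filled points were detected on at least 1 array, open points on none. Dashed lines mark a 1.8-fold change, orange marks the 5 genes called higher and blue the 2 called lower, which run from -1.44 for Prkcz to 1.50 for F11r.

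Markers of the cell types in the tissue moved unevenly between the stages. Of 10 epithelial markers 7 were on the array, with Krt8 and Krt19 called higher by log2 differences of 1.53 and 0.93, Cdh1, the gene of E-cadherin, called lower at -1.17, and Epcam at -0.04 without passing. Their summed level ran from 21541 to 23319 on the secretory arrays and from 27461 to 31317 on the maturation arrays, and Grhl2 was not detected. Krt14, a keratin of basal epithelium with mean log2 signals of 14.11 and 14.64 at the secretory and maturation stages, made up most of that sum and was higher by 0.53, passing the adjusted p alone. Of 9 macrophage and leukocyte markers 8 were on the array and 6 were called higher, led by Cd68 at 2.19, with a sum of 3582 to 4262 on the secretory arrays and 9525 to 12274 on the maturation arrays. The 4 maturation ameloblast markers on the array were all called higher, and of the 4 secretory ameloblast markers 2 were called lower. Their sums ran from 379 to 507 and from 16185 to 19370 for the maturation markers, and from 58657 to 63409 and from 30681 to 52975 for the secretory markers, secretory arrays first. Of 6 myelin and Schwann markers on the array, S100b was called higher at 1.20, and the sum ran from 316 to 338 and from 323 to 438. Of 8 fibroblast and mesenchyme markers on the array Thy1 was called higher at 0.97, with sums of 67062 to 77938 and 82890 to 86390. Of 6 odontoblast and osteoblast markers Ibsp was called higher at 1.95 and Dspp was called lower, detected on no maturation array, with sums of 4644 to 19295 and 9400 to 10962. The part of these cell types in the differences of the claudins was not tested.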

How the data were processed

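Secretory-stage and maturation-stage enamel organ RNA of 4 rats was hybridized to RatRef-12 BeadChips, 8 arrays in all. The authors deposited, per array and probe, the mean bead signal intensity, neither background-corrected nor normalized, its bead standard error on the same intensity scale, the number of beads as a count, and a detection p-value against negative-control beads. The bead summary software is not given in the sources used here. Stage and replicate came from the titles.

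The deposited intensity was corrected and normalized with neqc of limma 3.58.1 in R 4.3.3, which inferred negative controls from the deposited detection p-value, added an offset of 16 and quantile-normalized on the log2 scale; the offset understates changes of dim probes. Stages were compared with lmFit and eBayes, unpaired, on all 22523 probes, with Benjamini-Hochberg adjustment. The limma scripts were tested on simulated data. Permutation tests used scipy 1.17.1 in Python 3.11.15. A gene not detected on any array of 1 stage was given as a bound, the brighter mean against the detection floor. The probes' gene IDs gave a current RefSeq symbol for 17430 probes. The methods' t-test, other processing and left-out arrays were alternatives; leaving out maturation replicates 1 and 4 together, the permutation within rats, and the alternatives for single genes outside the set, were added after seeing the data.

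The study's methods take both stages from each rat. Deviations from the stage means over 11233 probes correlated at 0.195, 0.129, 0.219 and 0.234 between the 2 samples of rats 1 to 4, and at -0.0833 to -0.0426 on average with other rats, so the replicate number was used as a block in an alternative. The members and the gene lists were chosen with earlier results of these data known. Every member was named, and of the other listed tight junction genes every called one, with further genes given as examples of their group, and 1 listed gene is not reported here. Where a gene had several probes, the detected probe with the largest change stood for it. For the called member with the largest rise, the 3 genes with the highest correlation were named.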

Additional observations from a re-analysis of the deposited data

Results flagged for a closer look

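Ocln on secretory replicate 3 had a normalized log2 signal of 6.50, below the 6.93 to 7.02 of the other secretory arrays. Its gap to the nearest of them exceeded Dixon's 95% critical value for 4 values. It was 1 of 13 sets of 4 values examined, where chance gives 0.65 such sets. The cause was not tested.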

How the results depend on the processing

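The calls of Cldn1, Cldn4, Cldn5 and Cldn10 kept their direction and their side of the threshold in every alternative run, and among the 7 detected members and the 7 other tight junction genes called, for which alternatives were run, none reversed its sign. Without a fold threshold, 5 members were higher and 1 was lower, and of the other tight junction genes 15 were higher and 7 lower, a count that includes undetected probes. The other tight junction genes called higher numbered 3 without background correction and 10 with median scaling. With 1 array left out at a time, members called higher stayed at 4 and members called lower at 0, while other tight junction genes called higher ranged from 4 to 6 and those called lower stayed at 2. With the replicate block, which pairs the 2 samples of a rat, 4 members were called higher, and the one member to cross the adjusted p was Ocln at 0.0524 in limma. The methods' t-test gave the same 4 called claudins before and after Benjamini-Hochberg adjustment, among 1745 and 1718 called probes. Ocln passed the adjusted p in 4 of 17 alternatives, Tjp1 in 10 of 17 and Cldn11 in 2 of 16. The cause of these shifts was not tested. Only 4 arrays per stage limit the precision. Cldn3, 7 other claudins and Cldn11 at maturation were not above background, which leaves low levels unmeasured.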
